A study of Mus musculus with 24 samples.

Results

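The Hox genes measured here are the 38 mouse genes whose symbol is Hoxa, Hoxb, Hoxc or Hoxd followed only by a number, out of 35449 genes to which the deposited transcripts were assigned. They were chosen by name, and no measured value entered the choice. They lie in 4 clusters on GRCm38. The Hoxa cluster has 11 members at chr6:52155590-52260880, the Hoxb cluster has 9 at chr11:96271457-96368256, the Hoxc cluster has 9 at chr15:102921103-103036852 and the Hoxd cluster has 9 at chr2:74668310-74765142. RNA was measured in 24 libraries from the anterior lobe of the mouse prostate. Of these, 18 came from organoids, which are epithelial cultures grown in Matrigel from dissociated anterior lobes of mice aged 3 months, and 6 came from anterior lobes extracted directly, for which the labels give no age. The organoids were labelled wild type (WT), Brca1+/- (HET) or Brca1-/- (KO). Each label was grown both in medium containing dihydrotestosterone (DHT), the main androgen of the prostate, and in medium lacking it, with 3 libraries in each of the 6 groups. The medium of all organoids also held EGF, Noggin, R-Spondin, A83-01 and Y27632. The tissue carried the same 3 genotype labels, with 2 libraries in each. The labels name neither the cells in which Brca1 was deleted nor any driver of the deletion, and they do not tell whether replicates are separate animals, separate cultures or repeats of one. The p-values therefore cover the spread among these libraries, which may be technical.

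Hox genes encode homeodomain transcription factors that give cells their position along the body axis. Within a cluster they stand in the order in which they are used along that axis, so that genes at the end with low numbers (anterior) act towards the head and genes at the end with high numbers (posterior) act in the tail, the distal limb and the urogenital tract. The prostate and the other male accessory glands grow from the posterior urogenital tract, where posterior Hoxa and Hoxd genes such as Hoxa13 and Hoxd13 are needed for normal shape. Hox proteins bind DNA with TALE homeodomain partners of the Pbx and Meis families, and their clusters are kept silent by Polycomb and active by Trithorax complexes.

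The libraries held 11965815 to 58445041 estimated reads. WT with DHT replicate 1 was the smallest, and the next held 25233980. The labels were not mirrored in Brca1 RNA, which averaged 14.3 counts-per-million (CPM) in WT organoids with DHT, 17.6 in the HET group and 11.4 in the KO group, and 3.22, 2.79 and 2.61 CPM in the same order in tissue. Groups are therefore called by their labels. Tissue libraries WT 2 and HET 1 stood apart. The 8 listed seminal vesicle markers summed to 162300 CPM in WT 2 and 38840 CPM in HET 1, against 2.637 to 11.72 CPM in the other 4 tissue libraries and at most 0.1163 CPM in any organoid library. The 5 vas deferens and epididymis markers summed to 193.2 CPM in WT 2 and 80.30 CPM in HET 1, against at most 2.040 CPM in the other 4. Hox results in tissue that turned on these libraries are also given without them. The luminal epithelial markers summed to 5599 to 6701 CPM in organoids and 6321 to 17180 CPM in tissue, so by this sum the epithelial label held in both. One of these markers, Pbsn, was at 0 in WT organoids without DHT and in KO organoids in both media. In bulk RNA, fewer cells of a type and less RNA per cell cannot be told apart.

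Posterior genes of the Hoxa and Hoxd clusters led the organoids, and Hoxb9 stood beside Hoxa10 and Hoxa9 at the head of the tissue. Levels are compared between genes in transcripts-per-million (TPM), which allow for transcript length. Over the 18 organoid libraries Hoxa9 averaged 117 ± 18.3 TPM (SD, n = 18), Hoxa10 65.7 ± 9.62 TPM and Hoxd13 51.1 ± 11.8 TPM. Hoxa9 ranged from 82.0 to 166 TPM with a median of 116 TPM. Hoxa10 ranged from 49.3 to 88.0 TPM and Hoxd13 from 32.7 to 79.2 TPM, so the ranges of these neighbours overlapped across libraries. Within each organoid library Hoxa9 was above Hoxa10. Hoxa10 was above Hoxd13 in every organoid library but KO without DHT 1 (76.1 against 79.2 TPM). The next members were Hoxa11 with 17.6 ± 2.92 TPM, Hoxa13 with 16.5 ± 3.64 TPM and Hoxa7 with 12.2 ± 1.67 TPM. Hoxa11 and Hoxa13 lay within each other's spread, whereas the mean of Hoxa7 lay more than 1 SD below that of Hoxa13. The ranges of Hoxa7 (9.66 to 15.8 TPM) and Hoxa13 (12.1 to 26.2 TPM) overlapped. Within libraries Hoxa13 was above Hoxa7 in all but HET without DHT 3 (14.6 against 15.8 TPM).

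In the 6 tissue libraries the order was headed by Hoxb9, with 48.4 ± 18.4 TPM (SD, n = 6) and a range of 29.3 to 77.9 TPM. It ranked 15 in organoids, with 3.60 ± 0.705 TPM. Hoxa10 followed with 43.4 ± 16.6 TPM, Hoxa9 with 37.4 ± 17.2 TPM, Hoxa13 with 16.6 ± 7.59 TPM, Hoxd13 with 13 ± 3.78 TPM and Hoxb7 with 12.3 ± 7.20 TPM. The first 3 of these did not differ beyond their spread, nor did the last 3. Without tissue WT 2 and HET 1, Hoxa10 came first with 39.1 ± 9.37 TPM (SD, n = 4), ahead of Hoxb9 with 37.4 ± 6.50 TPM and Hoxa9 with 36.2 ± 9.09 TPM, again within their spread, and Hoxb7 was at 7.82 ± 2.61 TPM. Hoxa9 and Hoxa10 were thus among the leading members in both materials, whereas Hoxb9 was among the first 3 in tissue with or without that pair and far down the order in organoids. These levels sum all transcript models of a gene, as do the cluster shares below. For Hoxa10, models without a coding annotation took medians of 53.2% and 14.2% of its TPM in organoids and 62% and 11.9% in tissue. For Hoxa9, such a model took medians of 48.2% in organoids and 35.7% in tissue, on 17.3% and 10.4% of its reads. An order by coding models alone was not computed.

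**Figure D1:**
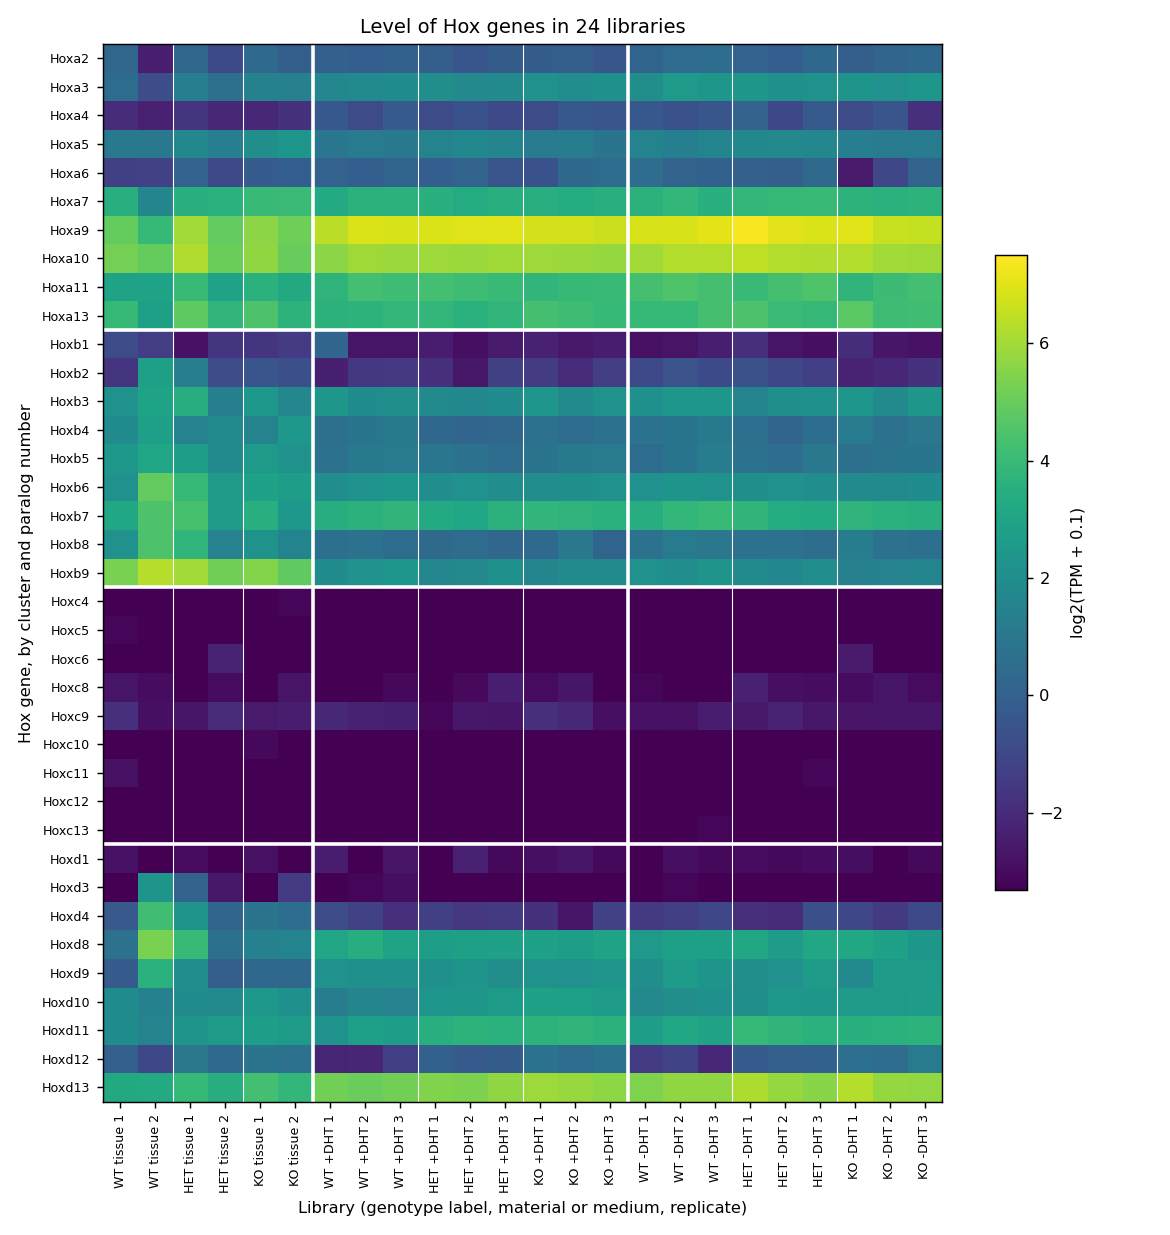
Level of Hox genes (rows, by cluster and paralog number) in each library (columns: genotype label, tissue or medium, replicate) as log2(TPM + 0.1) in colour. Hoxa9, Hoxa10 and Hoxd13 are bright in all 18 organoid libraries, Hoxb9 is bright in the 6 tissue libraries, and the 9 Hoxc genes are dark throughout.

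The clusters contributed unequally to the summed Hox level. Hoxa genes made up 64.55% to 72.89% of the summed Hox TPM in organoids (median 69.97%) and 19.59% to 57.4% in tissue (median 54.1%). Hoxb genes made up 6.409% to 11.14% in organoids (median 8.525%) and 28.21% to 53.94% in tissue (median 33.43%). The lower limit of the Hoxa share and the upper limit of the Hoxb share in tissue came from WT 2. Without WT 2 and HET 1, the tissue shares were 53.58% to 57.4% for Hoxa and 28.21% to 35.95% for Hoxb. The ranges of the 2 materials did not overlap for either cluster, with or without the pair. Hoxd genes had medians of 22.44% in organoids and 13.39% in tissue. By position, the 15 posterior members (paralogs 9 to 13) held 80.03% to 86.48% of the Hox TPM in organoids and 48.97% to 76.49% in tissue, or 71% to 76.49% without the pair.

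The Hoxc cluster, which is used in skin, mammary gland and hindlimb, was close to silent. Its 9 members stayed below 1 TPM in every library and collected 118.7 estimated reads over the 18 organoid libraries and 51.21 over the 6 tissue libraries. Hoxc12 had 0 reads in 24 libraries. Such a count allows up to 3 reads, or between 0.0513 and 0.251 CPM in a single library, and covers counting error only. Most of the Hoxc reads belonged to Hoxc9, which was between 0.0730 and 0.242 CPM in tissue and between 0.0243 and 0.295 CPM in organoids with DHT. In all, 9 members had too few reads to be tested in any comparison: Hoxc4, Hoxc5, Hoxc6, Hoxc8, Hoxc10, Hoxc11, Hoxc12, Hoxc13 and Hoxd1.

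Tissue and organoids with DHT differed at 20 of the 29 members tested, with 9 higher and 11 lower in tissue. This was 69% of the members, and 75.3% of all 17897 genes tested were called in the same comparison (41.6% higher, 33.7% lower). A gene was called where edgeR's quasi-likelihood F-test gave a Benjamini-Hochberg adjusted p below 0.05 over all genes. The median log2 change was -0.16 for the members and 0.17 for all genes. The libraries of the 2 materials did not overlap for 44.6% of all genes tested. Among the 29 members, 4 were higher and 8 lower in tissue without overlap. The direction followed the cluster: of 9 Hoxb members 6 were higher and 0 lower, of 11 Hoxa members 0 were higher and 7 lower, and of 8 Hoxd members 3 were higher and 4 lower. These include Hoxa4, which passed the filter on low counts only through organoids, and Hoxd3, which passed it only through tissue. Without tissue WT 2 and HET 1 the count was 19: Hoxb2, Hoxb6 and Hoxd3 were lost, and Hoxb7 and Hoxd8 were called lower. Scaling to library totals moved the median of all genes to 0.45 and the share of higher calls among all calls from 55.3% to 65.2%.

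The cell makeup of the materials differed as well. The 8 fibroblast markers summed to 280.3 to 647.0 CPM in tissue and 22.29 to 52.76 CPM in organoids, and the 8 smooth muscle markers to 370.8 to 5159 CPM in tissue and 224.2 to 339.4 CPM in organoids. The 8 endothelial markers summed to 81.51 to 102.6 CPM in tissue and 3.18 to 13.61 CPM in organoids, where Emcn was at 0, and the 7 nerve markers to 19.89 to 84.50 CPM and 3.336 to 18.01 CPM, with Elavl4 at 0 in organoids. Basal epithelial markers went the other way, with 181.4 to 1791 CPM in tissue and 3293 to 5857 CPM in organoids. The 5 urothelial markers summed to 146.8 to 456.2 CPM in tissue and 14.72 to 43.72 CPM in organoids, and the 8 leukocyte markers to 70.52 to 251.5 CPM and 109.6 to 216.4 CPM. Among the leukocyte markers, Adgre1 and Lyz2 were at 0 in all organoids with DHT, whose sum came from the other markers. No leukocyte marker was at 0 in tissue. The part of these cell types in the Hox differences was not tested.

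Hoxb9, a posterior member of the Hoxb cluster, showed the widest gap of the Hoxb genes. It was at 42.6, 58.4 and 140 CPM (lowest, median and highest) in tissue and at 4.86, 6.31 and 8.95 CPM in organoids with DHT. Every tissue library was far above every organoid library, and the log2 change was 3.33 (SE 0.165, adjusted p = 2.07e-12). Without tissue WT 2 and HET 1 it was 2.92, with the other 4 libraries at 42.6 to 59.4 CPM. The transcript models of Hoxb9 were also used differently: the model that took a median of 83.7% of the Hoxb9 TPM in organoids (37.2% to 100%) took 29.9% in tissue (25.1% to 43.7%), as estimated by Salmon, and the ranges overlapped.

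Hoxb4 and Hoxb5, central members, were higher in tissue with all libraries and without the pair that stood apart. Hoxb4 was at 3.62, 5.43 and 13.4 CPM in tissue and at 2.12, 2.74 and 3.71 CPM in organoids with DHT, a log2 change of 1.26 (SE 0.188, adjusted p = 6.82e-06). Hoxb5 was at 4.38, 7.27 and 13.9 CPM against 2.38, 3.00 and 3.54 CPM, a log2 change of 1.32 (SE 0.161, adjusted p = 5.37e-07). The Hoxb5 groups did not overlap, and those of Hoxb4 overlapped only through HET tissue 1. Hoxb8 was at 3.90, 6.65 and 40.1 CPM against 1.91, 2.53 and 3.05 CPM, a log2 change of 2.09 (SE 0.319, adjusted p = 9.05e-06) that was 1.03 without the pair.

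For Hoxb2 and Hoxb6 the call rested on that pair. Hoxb2, an anterior member, was at 0.242, 0.596 and 8.58 CPM in tissue and at 0.112, 0.293 and 0.380 CPM in organoids with DHT. Its log2 change was 2.48 (SE 0.497, adjusted p = 0.000187) with all libraries and 0.63 (adjusted p = 0.0926) without the pair. Hoxb6 was at 5.11, 7.13 and 36.7 CPM against 5.04, 5.82 and 7.06 CPM. Its log2 change was 0.96 (adjusted p = 0.00450) with all libraries and -0.06 (adjusted p = 0.632) without the pair. Exons of Hoxb2 overlap the antisense gene Hoxb3os over 27.3% of their length, and without a stated strand setting reads from such a pair cannot be told apart. Hoxb1, Hoxb3 and Hoxb7 were not called. Hoxb1 was at most 0.556 CPM in tissue and reached 1.63 CPM in WT with DHT replicate 1 only, against at most 0.136 CPM in the other organoid libraries with DHT.

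Among the Hoxa genes, Hoxa9, the leading member in organoids, was at 20.9, 40.4 and 48.0 CPM in tissue and at 96.7, 116 and 153 CPM in organoids with DHT, a log2 change of -1.68 (SE 0.174, adjusted p = 6.58e-08). Every tissue library was below every organoid library with DHT. Hoxa3 was at 0.983, 2.64 and 3.76 CPM against 5.82, 6.69 and 7.43 CPM, a log2 change of -1.44 (SE 0.154, adjusted p = 9.49e-08). Hoxa4 was at 0.113, 0.135 and 0.179 CPM against 0.50, 0.658 and 0.844 CPM, a log2 change of -2.13 (SE 0.327, adjusted p = 9.68e-06). No tissue library reached any organoid library with DHT for Hoxa3 or Hoxa4 either. Hoxa4 had only 3 to 10 reads in each tissue library and passed the filter on low counts only through organoids.

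The posterior genes Hoxa10 and Hoxa11, which pattern the reproductive tract of both sexes, were also lower in tissue. Hoxa10 was at 31.0, 35.9 and 57.4 CPM in tissue and at 59.9, 67.8 and 76.9 CPM in organoids with DHT, a log2 change of -0.76 (SE 0.138, adjusted p = 6.44e-05). Hoxa11 was at 9.79, 13.3 and 18.8 CPM against 21.4, 28.5 and 31.5 CPM, a log2 change of -1.02 (SE 0.123, adjusted p = 5.07e-07). Neither pair of groups overlapped. Exons of Hoxa11 overlap its antisense gene Hoxa11os over 35% of their length. Hoxa6 was at 0.145, 0.269 and 0.394 CPM against 0.295, 0.555 and 0.700 CPM, with overlap, a log2 change of -0.97 (SE 0.354, adjusted p = 0.0188) that was lost under 8 of 29 alternatives. Hoxa13, which is required for growth and branching of the prostate, was at 12.8, 20.5 and 35.5 CPM in tissue and at 21.7, 24.5 and 32.0 CPM in organoids with DHT. Its log2 change of -0.16 (adjusted p = 0.454) was not called, and neither were those of Hoxa2, Hoxa5 and Hoxa7, which lay between -0.40 and 0.09.

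The Hoxd members did not share a direction. The posterior gene Hoxd13, a regulator of prostate and seminal vesicle morphogenesis, was at 14, 18.9 and 27.1 CPM in tissue and at 58.4, 80.1 and 102 CPM in organoids with DHT. The groups were fully apart, with a log2 change of -2.10 (SE 0.149, adjusted p = 3.42e-10). Hoxd11 was at 4.72, 7.53 and 8.98 CPM against 9.31, 20.0 and 23.0 CPM, a log2 change of -1.23 (SE 0.135, adjusted p = 1.32e-07), and the groups did not overlap. Hoxd10 was at 3.38, 3.75 and 5.41 CPM against 3.14, 7.20 and 8.92 CPM, with overlap, a log2 change of -0.56 (SE 0.104, adjusted p = 8.11e-05). Hoxd12 went the other way, at 0.794, 2.10 and 2.50 CPM against 0.220, 1.60 and 2.86 CPM, a log2 change of 0.63 (SE 0.225, adjusted p = 0.0166), with wide overlap. For Hoxd10 and Hoxd12 the tissue change depended on the label: Hoxd10 gave 0.11 within the WT label and Hoxd12 gave -0.13 within the KO label.

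Towards the anterior end, Hoxd3 and Hoxd4 were higher in tissue. Hoxd4 was at 0.968, 1.70 and 24.9 CPM in tissue and at 0.0991, 0.339 and 0.931 CPM in organoids with DHT, without overlap, a log2 change of 3.54 (SE 0.519, adjusted p = 5.61e-06) and of 1.82 without tissue WT 2 and HET 1. Hoxd3 was at 0, 0.294 and 7.33 CPM in tissue and at most 0.0666 CPM in organoids with DHT, and it passed the filter on low counts only through tissue. It was called with all libraries (adjusted p = 0.00185) and not without the pair (adjusted p = 1). Exons of Hoxd3 overlap other genes on the same strand, Hoxd4 among them, over 62.3% of their length and those of Hoxd4 over 52.3%, so their reads may be split between them. Hoxd9 was at 0.992, 1.40 and 19.3 CPM against 6.44, 6.56 and 7.70 CPM. Its log2 change was -1.02 (SE 0.392, adjusted p = 0.0249) with all libraries, -2.58 without the pair, and 0.60 within the WT label alone. Hoxd8 was not called with all libraries (log2 change 0.07, adjusted p = 0.892). It was at 2.17 to 3.96 CPM in the 4 tissue libraries outside the pair, below the 7.56 to 10.7 CPM of the organoids with DHT.

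**Figure D2:**
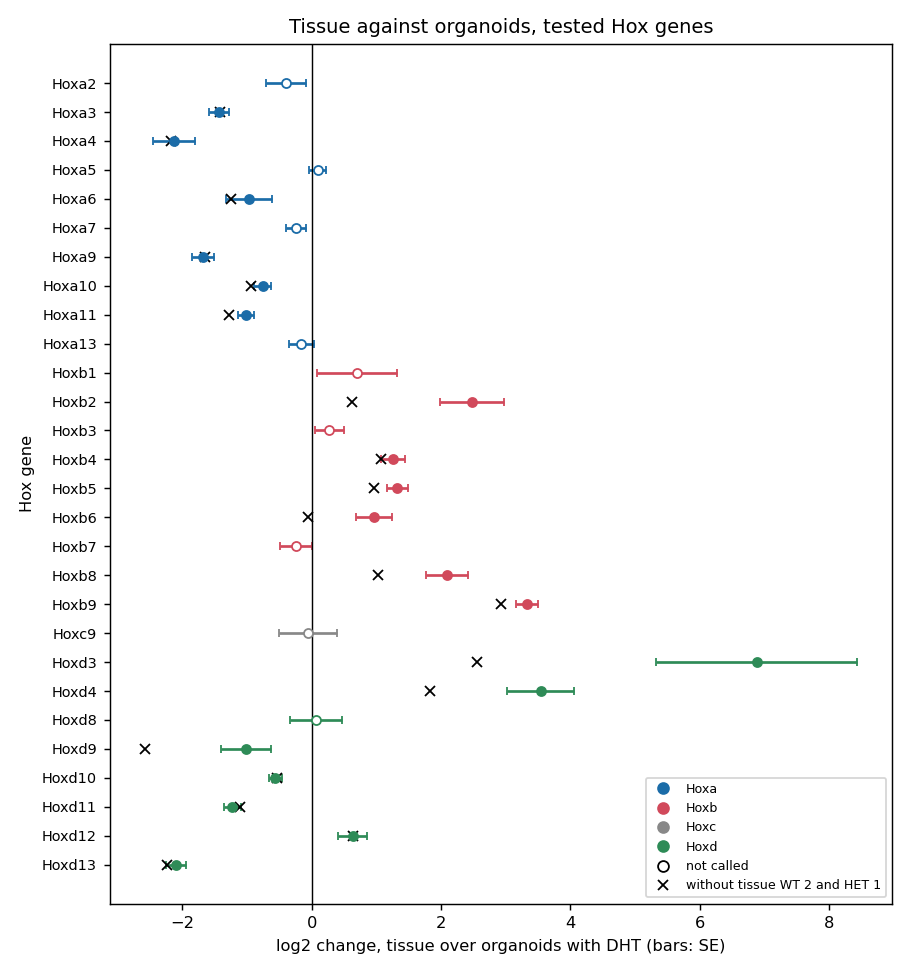
log2 change of tissue over organoids with DHT for tested Hox genes, with bars for the SE, filled points for called genes and crosses for the value of called genes without tissue WT 2 and HET 1. Most Hoxb points lie right of 0 and most Hoxa points left of it, and the crosses of Hoxb2, Hoxb6, Hoxd3, Hoxd4 and Hoxd9 lie far from their points.

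Tissue libraries WT 2 and HET 1, which carried the seminal vesicle markers, also had higher levels of several Hox genes. Of 29 members above a mean of 0.1 CPM in tissue, 11 were higher in both of these libraries than in each of the other 4, as were 18.1% of all genes. These members were Hoxb2, Hoxb3, Hoxb5, Hoxb6, Hoxb7, Hoxb8, Hoxb9, Hoxd3, Hoxd4, Hoxd8 and Hoxd9. Another 4 of the 29 members were lower in both than in each of the other 4 (Hoxa7, Hoxc9, Hoxd10 and Hoxd11). As 13.6% of all genes were lower in the same way, this count was near the background. Hoxc9 had only 1.7 reads in WT 2 and 2.8 in HET 1. The members high in the pair thus included 7 of the 9 Hoxb genes and the run from Hoxd3 to Hoxd9, and no Hoxa gene. They were picked out after their values were seen, and no test was made.

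Along the Hoxd cluster the higher values ended between Hoxd9 and Hoxd10. Hoxd8 was at 48.9 CPM in WT 2 and 13 CPM in HET 1, against 2.17 to 3.96 CPM in the other 4 tissue libraries. Hoxd9 was at 19.3 and 4.23 CPM against 0.992 to 1.45 CPM, and Hoxd4 at 24.9 and 4.84 CPM against 0.968 to 1.80 CPM. In each, WT 2 was the highest and HET 1 the next, which is also the order of their seminal vesicle marker levels. Hoxd10, the next gene, was at 3.48 and 3.38 CPM in the pair and 3.53 to 5.41 CPM in the other 4. Hoxd13 was at 18.4 and 19.4 CPM, within the 14 to 27.1 CPM of the other 4. In the Hoxb cluster, Hoxb8 was at 40.1 and 16.5 CPM against 3.90 to 6.92 CPM, and Hoxb9 at 140 and 79.5 CPM against 42.6 to 59.4 CPM. Hoxa7 was at 4.54 and 10.9 CPM in the pair and at 12 to 18.7 CPM in the other 4.

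**Figure D3:**
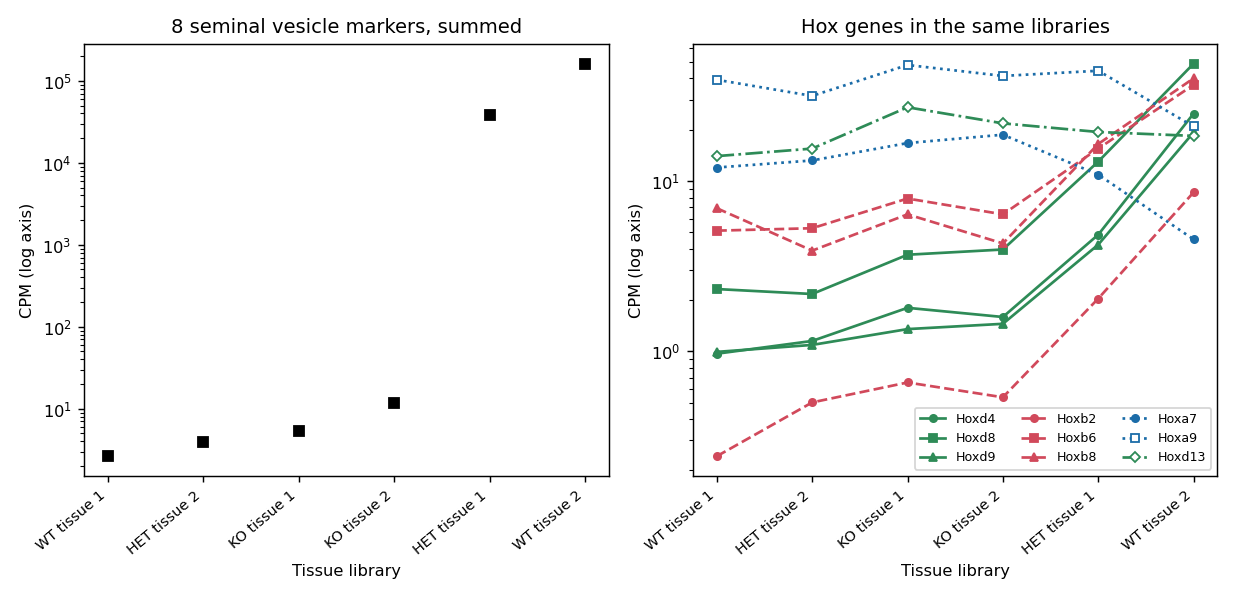
Summed CPM of the 8 seminal vesicle markers (left, log axis) and CPM of 9 Hox genes (right, log axis) in the 6 tissue libraries, ordered by the marker sum. Hoxd4, Hoxd8, Hoxd9, Hoxb2, Hoxb6 and Hoxb8 are highest in WT 2 and next in HET 1, Hoxa7 is lowest there, and Hoxd13 stays between 14 and 27.1 CPM.

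Genotype labels were compared within organoids, which addresses whether Hox expression moved with the Brca1 label. A run of neighbouring posterior Hoxd genes, Hoxd10, Hoxd11 and Hoxd12, was higher in HET-labelled and KO-labelled organoids than in WT. With DHT, 5 of the 27 members tested were called between HET and WT (7.48% of 15415 genes were), and 3 of 27 between KO and WT (4.12% of genes). Without DHT, 2 of 27 were called between HET and WT (7.80% of genes), and 5 of 27 between KO and WT (4.81% of genes). Between KO and HET, edgeR called 0 of 27 with DHT and 0 of 27 without (3.53% and 2.91% of genes). At an unadjusted p below 0.05 there were 4 and 7, and DESeq2 called 2 and 2. The HET and KO comparisons of a medium share their WT libraries, so their values are not independent. Groups without overlap were common. With DHT they made up 28.9% of all genes for HET against WT and 24% for KO against WT. Without DHT the shares were 20.3% and 17%. With DHT, 7 members were higher and 2 lower without overlap for HET, and 6 and 3 for KO. Without DHT these counts were 5 and 0 for HET, and 3 and 5 for KO. Between KO and HET the shares of all genes were 31.1% with DHT and 12.1% without.

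The 3 genes and their neighbour Hoxd13 lie side by side on the plus strand of chromosome 2. Since the 3 genes were called between labels in several comparisons, and Hoxd13, which was not called, stands next to them, the bases just upstream of their annotated starts are shown, from RefSeq on GRCm38.p6. The upstream windows of 250 bases are given 5′ to 3′ in lower case, with a motif match in capitals. RefSeq gives Hoxd11 a pair of starts. The windows are chr2:74667975-74668224 for Hoxd13, chr2:74674763-74675012 for Hoxd12, chr2:74679308-74679557 and chr2:74682073-74682322 for Hoxd11, and chr2:74691641-74691890 for Hoxd10.
Hoxd13: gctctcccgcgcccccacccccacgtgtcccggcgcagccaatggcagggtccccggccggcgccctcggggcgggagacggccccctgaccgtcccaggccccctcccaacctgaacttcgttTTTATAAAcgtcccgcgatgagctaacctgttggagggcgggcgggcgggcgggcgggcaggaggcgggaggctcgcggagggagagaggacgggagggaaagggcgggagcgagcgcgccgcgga
Hoxd12: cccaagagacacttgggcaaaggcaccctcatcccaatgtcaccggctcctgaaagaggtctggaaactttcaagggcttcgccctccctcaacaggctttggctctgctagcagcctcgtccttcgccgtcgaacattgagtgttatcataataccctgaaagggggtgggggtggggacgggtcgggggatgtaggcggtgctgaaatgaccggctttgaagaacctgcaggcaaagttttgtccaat
Hoxd11, upstream start: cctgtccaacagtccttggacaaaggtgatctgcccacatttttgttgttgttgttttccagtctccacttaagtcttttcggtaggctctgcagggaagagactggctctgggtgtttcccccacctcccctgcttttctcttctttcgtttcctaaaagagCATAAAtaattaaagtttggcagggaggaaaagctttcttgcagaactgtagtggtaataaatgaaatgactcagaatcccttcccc
Hoxd11, downstream start: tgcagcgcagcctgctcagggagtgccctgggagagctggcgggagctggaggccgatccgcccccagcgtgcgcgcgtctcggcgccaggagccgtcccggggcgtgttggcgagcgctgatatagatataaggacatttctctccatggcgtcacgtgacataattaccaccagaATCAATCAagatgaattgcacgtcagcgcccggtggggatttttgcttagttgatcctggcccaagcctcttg
Hoxd10: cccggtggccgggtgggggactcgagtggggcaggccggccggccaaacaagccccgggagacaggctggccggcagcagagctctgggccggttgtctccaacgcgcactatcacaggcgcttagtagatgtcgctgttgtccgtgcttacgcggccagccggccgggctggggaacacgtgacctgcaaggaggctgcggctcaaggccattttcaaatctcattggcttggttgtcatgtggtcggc
Motifs were searched on both strands in these windows: TTTATG, the core bound by Cdx factors; TGACAG, bound by Meis factors; TGATTNAT, bound by Pbx and Hox together; TGTTCT, the core bound by the androgen receptor; and TATAAA, the TATA box. TTTATG shares its first 5 letters with the reverse complement of TATAAA. In the Hoxd13 window TATAAA matched on both strands, in overlap. In the upstream Hoxd11 window TTTATG matched on the minus strand, and in the downstream one TGATTNAT did. The windows of Hoxd10 and Hoxd12 held none of these letters. Over 32851 windows of the same length, 10.8% held TTTATG, 15.9% TGACAG, 2.82% TGATTNAT, 16.1% TGTTCT and 12.4% TATAAA. The windows held 31 CpG dinucleotides for Hoxd13, 10 for Hoxd12, 2 and 20 for Hoxd11 and 20 for Hoxd10, and the median window of any gene held 6. RefSeq windows were matched for 22 of the 38 members.

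Hoxd12 changed most. With DHT it was at 0.233, 0.220 and 0.555 CPM in the 3 WT libraries, at 1.73, 1.48 and 1.60 CPM in the 3 HET-labelled ones and at 2.86, 2.40 and 2.76 CPM in the 3 KO-labelled ones. The groups did not overlap, and the log2 changes over WT were 2.13 (SE 0.359, adjusted p = 0.00146) for HET and 2.87 (SE 0.36, adjusted p = 0.000116) for KO. Without DHT it was at 0.503, 0.611 and 0.226 CPM in WT, at 1.59, 1.69 and 1.57 CPM in HET and at 2.83, 2.50 and 3.64 CPM in KO. The changes were 1.84 (SE 0.331, adjusted p = 0.00208) and 2.73 (SE 0.334, adjusted p = 9.31e-05). The WT libraries held 2, 9 and 25 Hoxd12 reads with DHT and 26, 29 and 10 without. The sizes of the changes over WT therefore rest on few WT reads. The KO libraries were above the HET libraries in both media, but the difference was not called (log2 0.73 with adjusted p = 0.27 and 0.89 with adjusted p = 0.184).

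Hoxd10 was at 3.14, 3.74 and 3.42 CPM in WT with DHT, at 6.57, 7.20 and 8.06 CPM in HET and at 8.61, 8.92 and 7.43 CPM in KO. Neither labelled group overlapped WT, with log2 changes of 1.07 (SE 0.137, adjusted p = 0.000123) and 1.26 (SE 0.137, adjusted p = 3.1e-05). Without DHT it was at 4.12, 4.67 and 5.28 CPM in WT, at 5.89, 6.87 and 6.18 CPM in HET and at 7.81, 7.12 and 6.97 CPM in KO. The groups again did not overlap WT, and the gap was narrower, at 0.43 (SE 0.131, adjusted p = 0.0578, not called) for HET and 0.64 (SE 0.132, adjusted p = 0.00879) for KO. The narrowing itself was not called (log2 -0.64 and -0.62 for the difference of response, adjusted p = 1 for both).

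Hoxd11 was at 9.31, 11.3 and 11 CPM in WT with DHT, at 18.8, 22.7 and 23.0 CPM in HET and at 21.2, 22.9 and 20.0 CPM in KO. Both labelled groups lay above WT, with log2 changes of 1.02 (SE 0.189, adjusted p = 0.00308) and 1.00 (SE 0.189, adjusted p = 0.00439). Without DHT it was at 10.3, 11.9 and 12.8 CPM in WT, at 31.7, 22.9 and 17.2 CPM in HET and at 24.1, 20.2 and 17 CPM in KO. These too lay above WT, with changes of 1.04 (SE 0.186, adjusted p = 0.00206) and 0.81 (SE 0.186, adjusted p = 0.0186). A median of 80.2% of the Hoxd11 reads in organoids was assigned to a transcript model without a coding annotation. With protein-coding models only, the calls without DHT were lost. Of 17 alternatives, the call of KO over WT without DHT was lost under 7 for Hoxd11 and 4 for Hoxd10, and under 0 for Hoxd12. Exons of Hoxd10 and Hoxd11 overlap Gm28309 on the same strand over 5.73% and 10.8% of their length.

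**Figure D4:**
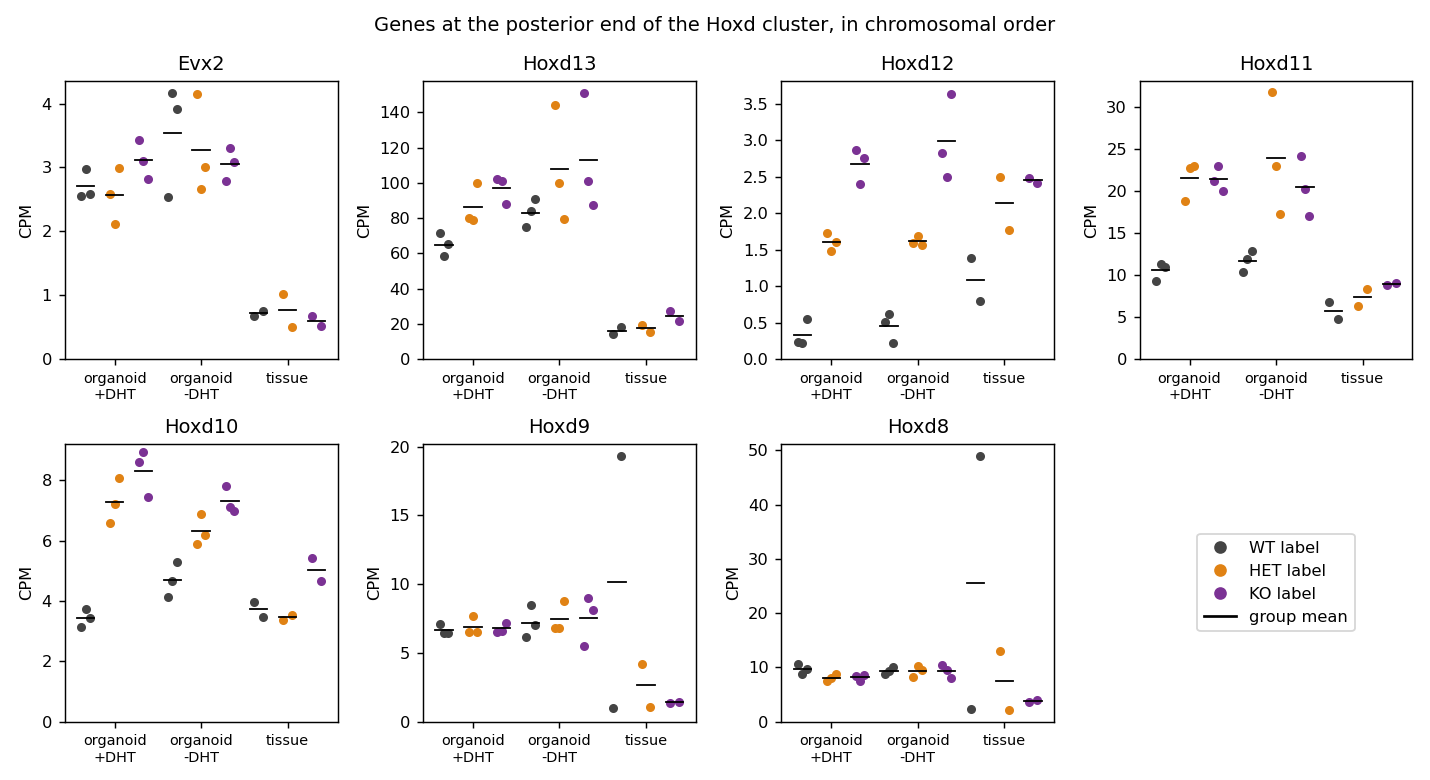
CPM of Evx2 and 6 Hoxd genes in every library, by material and genotype label, with lines for group means. Hoxd12, Hoxd11 and Hoxd10 separate WT from the HET and KO labels in organoids, whereas Hoxd9, Hoxd8 and Evx2 do not.

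The genes around this run were not called. Hoxd13 was at 71.3, 58.4 and 65.3 CPM in WT with DHT, at 80.1, 78.7 and 100 CPM in HET and at 102, 101 and 88.0 CPM in KO. These groups did not overlap WT, but the log2 changes of 0.41 (adjusted p = 0.319) and 0.58 (adjusted p = 0.189) were not called. Hoxd9 lay between 6.44 and 7.70 CPM over all 9 libraries with DHT, with log2 changes of 0.06 for HET and 0.03 for KO. Evx2, the homeobox gene beyond Hoxd13, had log2 changes of -0.08 and 0.19 with DHT, and of -0.12 and -0.21 without. Of 13 genes tested within 500 kb of the cluster, 6 were not Hox genes, and 0 of their edgeR comparisons between labels were called (lowest adjusted p = 0.437).

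Other members called between labels were Hoxa5, Hoxb2, Hoxb4 and Hoxb9. Hoxa5, a regulator of lung and mammary development, was at 2.56, 2.76 and 2.62 CPM in WT with DHT and at 3.68, 4.55 and 4.03 CPM in HET, without overlap, a log2 change of 0.62 (SE 0.175, adjusted p = 0.04). Hoxb4, known for its role in blood stem cells, was at 3.03, 3.25 and 3.71 CPM in WT and at 2.19, 2.12 and 2.18 CPM in HET, without overlap, a log2 change of -0.63 (SE 0.182, adjusted p = 0.0458). Both calls were lost when any 1 of the 6 libraries compared was left out, which left 3 members called each time. Hoxb9 without DHT was at 7.87, 6.46 and 8.36 CPM in WT and at 4.68, 5.04 and 4.71 CPM in KO, a log2 change of -0.65 (SE 0.157, adjusted p = 0.0250). Hoxb2 was at 0.522, 0.674 and 0.521 CPM in WT and at 0.129, 0.153 and 0.206 CPM in KO, a log2 change of -1.76 (SE 0.439, adjusted p = 0.0295). Neither overlapped, but these calls were lost under 10 and 13 of the alternative settings. The Hoxb cluster lies 5.12 Mb from Brca1 on chromosome 11, and a part of that linkage in the Hoxb values was not tested.

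**Figure D5:**
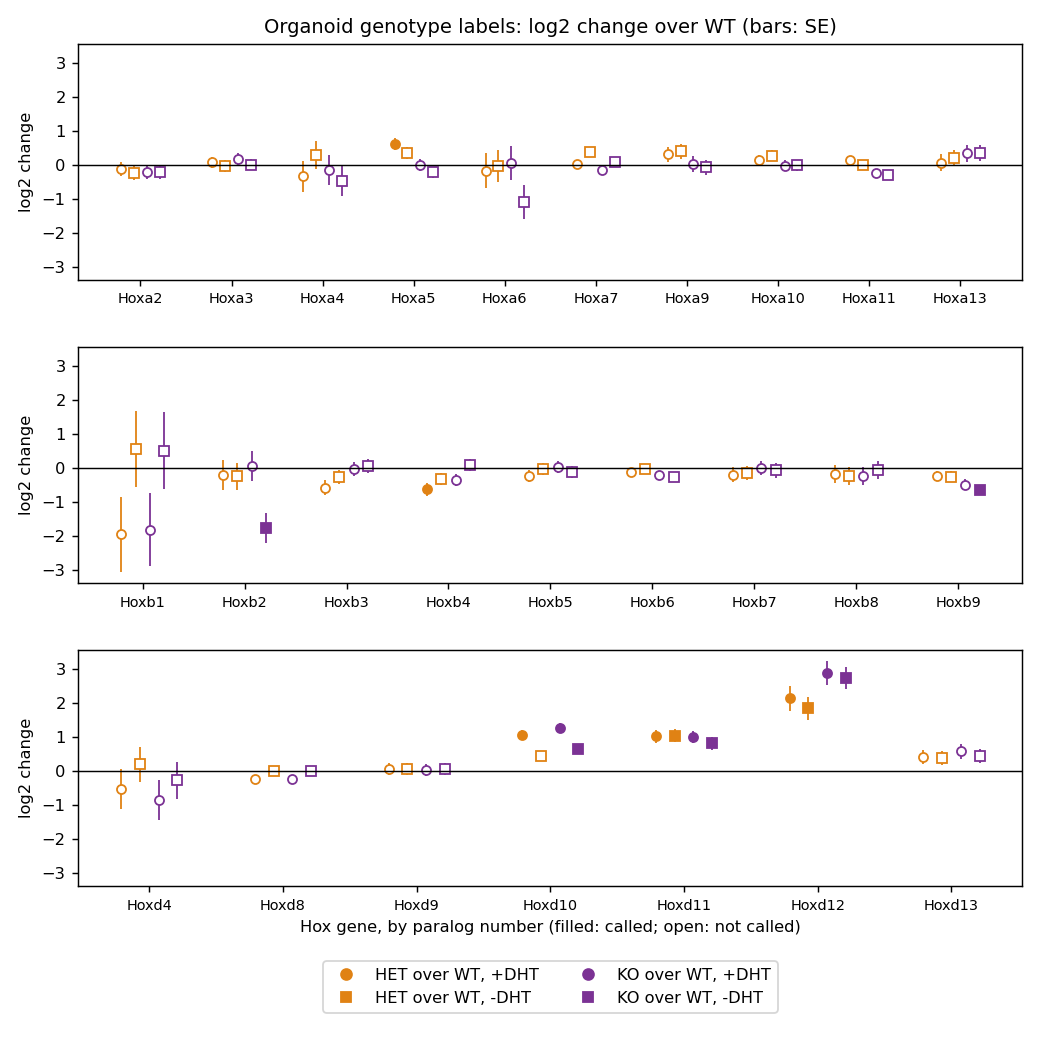
log2 change over WT organoids, with SE, for tested Hox genes of the Hoxa, Hoxb and Hoxd clusters, by label (colour) and medium (shape), with filled points for called genes. Hoxd10, Hoxd11 and Hoxd12 stand above 0 in each comparison, as does Hoxd13 with smaller values that were not called, and most other points lie close to 0.

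Organoid libraries HET without DHT 1 and KO without DHT 1 had the highest levels of several leading members, and also the highest shares of mitochondrial reads. Hoxa9 was at 220, 150 and 110 CPM in the 3 HET libraries and at 156, 108 and 84.7 CPM in the 3 KO libraries without DHT. Hoxd13 was at 144, 100 and 79.5 CPM and at 151, 101 and 87.2 CPM, and Hoxa13 at 42.4, 28.4 and 22.2 CPM and at 48.0, 30.0 and 24.3 CPM. The mitochondrial shares of the same libraries were 9.43%, 4.54% and 2.42% for HET and 10.01%, 4.17% and 2.61% for KO. The part of these shares in the levels of Hoxa9, Hoxa13 and Hoxd13 was not tested. When these libraries and the small WT with DHT 1 were left out, a choice made after seeing the data, Hoxd10, Hoxd11 and Hoxd12 were called in the same comparisons as before, with log2 changes of 0.59 to 2.77. The calls of Hoxa5 (adjusted p = 0.0605), Hoxb9 (adjusted p = 0.0647) and Hoxb2 (adjusted p = 0.0531) were lost, and 5 members in place of 3 were called between KO and WT with DHT, the additional ones being Hoxd13 at 0.65 (adjusted p = 0.0132) and Hoxa11 at -0.34 (adjusted p = 0.0365). Hoxd13 was then also called in HET over WT with DHT, at 0.49 (adjusted p = 0.047).

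No member was called on withdrawal of DHT. edgeR called 0 of 27 under the WT, HET and KO labels, against 1.30%, 0.707% and 0.558% of all genes, and DESeq2 also called 0 in each. At an unadjusted p below 0.05 there were 3 in WT (Hoxd10, Hoxb2 and Hoxa3), 4 in HET (Hoxa7, Hoxa10 and Hoxb2 among them) and 0 in KO. Hoxd10 in WT had a log2 change of 0.43 (SE 0.136, adjusted p = 0.211). Hoxb2 had log2 changes of 1.04 (SE 0.432, adjusted p = 0.483) in WT, 1.00 (SE 0.429, adjusted p = 0.537) in HET and -0.77 (adjusted p = 0.888) in KO. No difference of response between labels was called for any of the 27 members or of the 15415 genes, and 1, 2 and 1 members were below an unadjusted p of 0.05.

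In tissue, edgeR called 0 of 26 members and 0 of 16739 genes between any pair of labels, at 0, 1 and 0 members below an unadjusted p of 0.05, and DESeq2 called 0 members in each. With 2 libraries per label, the fit recovered 0% of simulated 4-fold changes, so differences of that size were not detectable. Hoxd12 was at 1.38 and 0.794 CPM in WT tissue, at 2.50 and 1.77 CPM in HET and at 2.48 and 2.42 CPM in KO. The WT libraries were the lowest, as in organoids, but the log2 changes over WT of 0.97 and 1.19 were not called. Hoxd10 was at 3.97 and 3.48 CPM in WT, at 3.38 and 3.53 CPM in HET and at 5.41 and 4.67 CPM in KO, so HET did not lie above WT there. Hoxd11 was at 6.73 and 4.72 CPM in WT, at 6.35 and 8.33 CPM in HET and at 8.83 and 8.98 CPM in KO. Its HET and WT values overlapped, and the 4.72 and 6.35 CPM came from WT 2 and HET 1. Outside that pair, Hoxd11 was at 6.73 CPM in WT and 8.33 CPM in HET. The values there were 3.97 and 3.53 CPM for Hoxd10, and 1.38 and 1.77 CPM for Hoxd12.

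Partners and regulators of Hox genes are given by list. Among 9 TALE cofactors, 2 were higher and 4 lower in tissue than in organoids with DHT (median log2 change -0.25, all genes 0.17). In that comparison 75.3% of all genes were called, 41.6% higher and 33.7% lower, so the counts of the lists are read against a background in which most genes differ. Pknox2 was at 42.5 CPM on average in tissue and 1.80 CPM in organoids with DHT, a log2 change of 4.55 (SE 0.277, adjusted p = 3.76e-11). Meis3 changed by 3.06 (adjusted p = 1.99e-09) and Meis2 by -2.85 (adjusted p = 4.32e-09), or by -3.46 without tissue WT 2 and HET 1. Between labels in organoids, Pknox2 was the only 1 of the 9 called (7.48% and 7.80% of all genes were in the comparisons concerned), at -0.95 (adjusted p = 0.0400) with DHT and -1.39 (adjusted p = 0.00377) without DHT in HET over WT. The first of these was lost under 9 of 17 alternatives and the second under 3.

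Of 20 Polycomb genes, 7 were higher and 12 lower in tissue (median -0.33), against 41.6% and 33.7% of all genes. Suz12 and Ezh2, of the complex that methylates histone H3 on silent Hox clusters, changed by -1.99 (adjusted p = 8.75e-09) and -1.56 (adjusted p = 4.27e-08). The chromodomain genes Cbx6 and Cbx7 changed by 1.68 (adjusted p = 2.95e-08) and 1.65 (adjusted p = 8.79e-08). Of 14 Trithorax and related genes, 2 were higher and 7 lower (median -0.20), and 75.3% of all genes were called in either direction. Among the lower ones were the histone methyltransferase gene Dot1l at -1.86 (adjusted p = 5.47e-11), the demethylase genes Kdm6a at -1.53 (adjusted p = 1.78e-07) and Kdm6b at -0.52 (adjusted p = 5.68e-06), and Rbbp5 at -0.77 (adjusted p = 1.34e-06). In organoids, Phf19 was higher in HET than in WT in both media, by 0.92 (adjusted p = 0.0175) and 0.82 (adjusted p = 0.0245). Jarid2 was lower in KO than in WT without DHT, by -0.65 (adjusted p = 0.00161), and Kansl1 lower in HET without DHT, by -0.32 (adjusted p = 0.0142). The Phf19 calls were lost under 7 and 8 of 17 alternatives and the Kansl1 call under 8.

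Among 8 upstream activators of Hox clusters, 5 were tested. Cdx2, a caudal-type homeobox factor that activates Hox genes in the embryonic trunk and gut, had 0 reads in the 6 tissue libraries, a count that allows up to 3 reads in each. In organoids with DHT it was at 0.116, 0.0489 and 0.200 CPM in WT, at 1.22, 0.921 and 1.01 CPM in HET and at 0.182, 0.372 and 0.255 CPM in KO. Without DHT it was at 0.0193, 0.0842 and 0.0906 CPM in WT, at 1.51, 1.33 and 1.07 CPM in HET and at 0.300, 0.175 and 0.514 CPM in KO. The HET libraries were above all others in both media, with log2 changes over WT of 3.05 (SE 0.548, adjusted p = 0.00245) and 4.29 (SE 0.551, adjusted p = 0.000114). The WT values lay near the 0.0513 to 0.251 CPM that 3 reads make in a single library, so changes over WT rest on few WT reads. Cdx2 passed the filter on low counts only through HET and KO libraries. KO lay below HET by -1.96 (adjusted p = 0.0296) and -1.95 (adjusted p = 0.0347), and above WT by 2.34 (adjusted p = 0.0262) without DHT. The KO to HET calls were lost under 8 and 11 of 17 alternatives, and the call of KO over WT under 5 of 16. For Hoxd12 the KO values lay above those of HET, a difference that was not called. A link between Cdx2 and the Hox levels was not tested. Gdf11, a secreted signal of the TGF-beta family that activates posterior Hox genes in the trunk, was lower with DHT in HET and in KO than in WT, by -0.93 (adjusted p = 0.0244) and -0.95 (adjusted p = 0.0313), calls that were each lost under 8 of 17 alternatives.

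The homeobox genes that flank the clusters differed between the materials. Evx2 averaged 0.692 CPM in tissue and 2.80 CPM in organoids with DHT, a log2 change of -2.02 (adjusted p = 1.95e-08), in the direction of its neighbour Hoxd13. Evx1, beyond Hoxa13, was at 0.122 to 0.286 CPM in tissue and had 0 reads in every organoid library. Such a count allows up to 3 reads, or 0.0513 to 0.251 CPM in a single library and 0.00399 CPM over the organoid libraries summed. Evx1 passed the filter on low counts only through tissue. The 18 long noncoding RNAs and miRNA genes listed for the clusters were not analysed here.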

How the data were processed

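RNA-seq of 18 organoid and 6 tissue libraries was analysed. The files hold 116945 transcripts each, with their estimated counts, TPM and effective lengths in bases, per the file headers. Per the submitters' processing notes, the authors made the deposited estimated counts and TPM with Salmon 0.13.1, and those notes name the build hg38 although the deposited identifiers are mouse Ensembl identifiers. The index, trimming and strand setting are not given in the sources used here. Estimated counts and TPM were summed per gene with GENCODE mouse release 21 (GRCm38), matching identifiers without their version, and the counts were rounded. The 1000 transcripts without a gene held 0.241% to 0.348% of reads and were left out. The deposited effective lengths, a quantity other than expression, entered only the length-offset alternative.

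The main test was the quasi-likelihood F-test of edgeR 4.0.16 (under R 4.3.3), with TMM scaling, the filterByExpr filter and Benjamini-Hochberg adjustment over all genes, at 0.05. The 24 libraries were fitted together for tissue against organoids (17897 genes, 15 residual degrees of freedom), the 18 organoid libraries for labels and DHT (15415 genes, 12), and the 6 tissue libraries for labels in tissue (16739 genes, 3). Printed CPM use 1 TMM scaling over all 24 libraries. Standard errors come from the F statistic. On simulated counts for HET against WT organoids with DHT, over 15194 genes, the test recovered 68% of 2-fold and 86% of 4-fold changes. It recovered 63% and 88% for tissue against organoids over 17274 genes, and 0% of either for HET against WT tissue over 16472 genes.

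Values are given for every member called in a comparison, for the 6 members with the highest mean TPM in each material, and for up to 4 called genes with the lowest p in each list of cofactors and regulators. The members and lists were chosen with earlier results of these data known. No replicate pair agreed within sampling noise (lowest chi-square per degree of freedom 17.17). The labels do not state whether replicate numbers pair samples, so the main fits hold no replicate block. Some same-numbered organoid libraries did deviate together from their group means. HET and KO without DHT correlated at 0.614 for replicate 1 and 0.690 for replicate 3. Others went apart, such as WT and KO without DHT at -0.519 for replicate 3. Pairing is therefore not excluded. Alternatives were DESeq2 1.42.0, its size factors, library totals, other low-count filters, protein-coding models only, length offsets, a replicate block, limma 3.58.1, other sets of libraries in the fit, and leaving out each library. Leaving out tissue WT 2 and HET 1, or 3 organoid libraries, was chosen after seeing the data. Counting error alone is covered by limits from 0 reads. Some genes of the family and of the lists are not reported here.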

Additional observations from a re-analysis of the deposited data

Results flagged for a closer look

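In the 6 tissue libraries, taken over the 3 genotype labels, WT 2 was far above the other 5 for 8 of the 29 members looked at, by the gap to the next library relative to the whole range. Hoxb2 was at 8.58 CPM (next 2.04), Hoxb5 at 13.9 (next 7.93), Hoxb6 at 36.7 (next 15.5) and Hoxb8 at 40.1 CPM (next 16.5). Hoxd3 was at 7.33 CPM (next 1.34), Hoxd4 at 24.9 (next 4.84), Hoxd8 at 48.9 (next 13) and Hoxd9 at 19.3 CPM (next 4.23). In each of the 8, HET 1 was the next library. Chance alone would be expected to single out about 1 in 20 such groups, and the 8 genes share the same libraries, so they are not separate observations. The share of all genes for which WT 2 stood out in this way was not computed. The 8 of 29 therefore cannot be read as particular to Hox genes. By another measure, 18.1% of all genes were higher in both WT 2 and HET 1 than in each of the other 4 tissue libraries. The organoid groups hold 3 libraries and were not looked at in this way.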

How the results depend on the processing

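For tissue against organoids with DHT the count of called members (20) stayed between 15 and 21. The counts between labels moved more, and the cause was not tested. HET against WT with DHT fell from 5 to 3 without a low-count filter, with protein-coding transcripts, with a length offset, with all 24 libraries in 1 fit and with only the groups compared, and was 3 to 3 with any library left out. HET against WT without DHT (2) was 1 with protein-coding transcripts, 4 with DESeq2 and 0 with only the groups compared. KO against WT without DHT (5) was 2 with library totals, 3 without a filter, 3 with protein-coding transcripts, 1 with all 24 libraries, 1 with only the groups compared, 3 without the 3 organoid libraries named in the report, and 1 to 4 with 1 library left out. KO against WT with DHT (3) was 5 without those 3 libraries. KO against HET with DHT (0) was 2 with DESeq2, 2 with only the groups compared, and 2 without those 3 libraries. KO against HET without DHT (0) was 2 with DESeq2. With the replicate number as a block, KO against HET with DHT was 2 and tissue against organoids 19, and the other counts did not move. The numbers mark no stated pairing: same-numbered organoid libraries correlated between -0.519 and 0.690 in their deviations from group means, and 12 of 18 correlated best with their own number. Single values that changed direction, all for tissue against organoids, were Hoxb6 at -0.059 without tissue WT 2 and HET 1, Hoxd12 at -0.13 within the KO label, and Hoxd9 at 0.60 and Hoxd10 at 0.11 within the WT label. DHT withdrawal and tissue labels gave 0 members under every alternative run. Depth limited what could be seen of the Hoxc genes and of Hoxd1, and 2 libraries per label limited the tissue comparisons.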
